A study of Gallus gallus with 6 samples.

Results

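The miR-34 family was followed in the abdominal fat of broilers (Gallus gallus), as the rows of the deposited small RNA table whose names are miR-34a, miR-34b or miR-34c, with both arms of each hairpin. The 5p arms are listed as gga-miR-34a-5p, gga-miR-34b-5p and gga-miR-34c-5p, where gga stands for the chicken. These are 6 of the 667 mature miRNA rows, and 4 of them passed the filter on low counts. The family was chosen by name with its values in these libraries already known, namely the higher counts of miR-34b-5p and miR-34c-5p with vitamin E. Its vitamin E contrast is therefore given as a description, and no p-value of a member is printed. Counts of members under a threshold are part of that description. The libraries are 3 from birds on 50 IU of DL-α-tocopherol acetate, an ester form of vitamin E, and 3 from control birds, all sampled at day 35. The feeding study had started with 240 female chicks on 5 diets, with 0, 20, 50, 75 or 100 IU of the supplement. The labels give no IU value beside the control libraries, name no strain and do not state whether each library is a different bird. Any p-value below therefore measures a spread between libraries that could be technical.

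miRNAs are short RNAs that lower the output of transcripts carrying a match to their seed, bases 2 to 8 of the mature strand. In mammals miR-34a comes from a gene of its own and miR-34b and miR-34c from a shared transcript, and the miRNAs repress regulators of the cell cycle and of survival. In mice, miR-34a has been reported to be raised in fat of obese animals and to hold back the browning of fat. By contrast, miR-34b and miR-34c are best known from multiciliated epithelia and testis, where they act together with the related miR-449 family. The 5p arm is the one usually loaded as the active strand, and the 3p arm is the less stable partner.

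In the chicken assembly GRCg7b of RefSeq, MIR34B and MIR34C lie next to each other with 0 annotated genes wholly between them, and both overlap C11orf88, with BTG4 before and DDX6 after the pair. MIR34A lies on a different chromosome, within the span of the uncharacterised gene LOC121107378 and between GPR157 and H6PD. No source used here names the build behind the deposited table, so these are gene orders and not positions. The mature strands of miR-34b-5p and miR-34c-5p are closely alike in vertebrates, and no source used here says how reads that match both were counted. The split between miR-34b-5p and miR-34c-5p is therefore uncertain, and their sum is given beside them.

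Library totals were 5844435 to 7062595 counts with vitamin E and 5028671 to 7357204 counts in control. A count of 0 allows up to 3 counts, which is 0.425 to 0.513 TPM in the vitamin E libraries and 0.408 to 0.597 TPM in the controls. TPM here is the count per 1000000 counts of the library with no length term. Levels of different miRNAs are set side by side below as shares of reads. Whether the libraries captured each miRNA equally well was not tested. miRNAs abundant in fat tissue, none of them exclusive to it, summed to 223308 to 251235 TPM with vitamin E and 229578 to 259577 TPM in control over 11 rows. miR-26a-5p led them, at 154517 ± 5878 TPM with vitamin E and 172642 ± 10884 TPM in control (± SD, n = 3 each). Of the 9 tested rows of this list 5 were higher and 4 lower with vitamin E (median log2 fold change 0.08), and 0 were called (edgeR quasi-likelihood; 1 at an unadjusted p under 0.05, miR-193b-3p; 1 by DESeq2). The groups did not overlap in 1 row with vitamin E higher, miR-193b-3p, and 1 with it lower, miR-26a-5p. Such rows were 10.9% and 2.10% of all tested miRNAs. For miR-26a-5p the values were 148262 to 159925 TPM with vitamin E and 160172 to 180239 TPM in control. Over all 238 tested miRNAs and in either direction, edgeR's test called 0.420%, an unadjusted p under 0.05 held for 7.56%, and DESeq2 called 2.94%. In whole tissue, fewer cells of a type and less RNA per cell cannot be told apart.

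miR-34a-5p was the family's dominant product in every library. It had 335, 547 and 588 TPM in vitamin E libraries 1, 2 and 3, against 337, 620 and 270 TPM in control libraries 1, 2 and 3. The groups overlapped fully, since the highest and the lowest library were both controls. Means were 490 ± 135 TPM with vitamin E and 409 ± 186 TPM in control (± SD, n = 3 each). The log2 fold change, vitamin E over control, was 0.15 with a standard error (SE) of 0.37, and it was -0.04 without vitamin E library 3 and -0.12 without control library 3, while without control library 2 it was 0.55. The depth behind these values was 1959 to 3860 counts with vitamin E and 1986 to 3116 counts in control. The coefficient of variation between libraries was 27.6% with vitamin E and 45.4% in control. By abundance miR-34a-5p ranked between 64 and 74 of the 667 rows with vitamin E and between 57 and 74 in control.

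The partner strand miR-34a-3p had 37.0, 22.1 and 50.4 TPM with vitamin E, against 35.2, 35.2 and 21.6 TPM in control. These groups overlapped too. The log2 fold change was 0.12 (SE 0.45), and it was -0.23 without vitamin E library 3 and -0.14 without control library 3. The 3p strand made up 9.93%, 3.88% and 7.89% of the miR-34a counts in the vitamin E libraries, against 9.46%, 5.38% and 7.41% in the controls. Its mean share was 7.24% ± 3.08 in the vitamin E group and 7.41% ± 2.04 in control (SD, n = 3 each). The arm ratio varied between libraries of the same group. Its exact (Clopper-Pearson) 95% interval was 8.71% to 11.3% in vitamin E library 1 and 3.31% to 4.53% in vitamin E library 2, and such intervals cover counting error only.

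miR-34c-5p, of the clustered pair, was higher in all 3 vitamin E libraries than in any control. It had 98, 86 and 61 counts with vitamin E, against 37, 15 and 20 counts in control. On the TPM scale these were 16.8, 12.2 and 10.01 with vitamin E, against 5.55, 2.98 and 2.72 in control, so the lowest vitamin E library stood 1.80-fold above the highest control. Means were 13.0 ± 3.45 TPM with vitamin E and 3.75 ± 1.56 TPM in control (± SD, n = 3 each). The log2 fold change was 1.64 (SE 0.53), and the ratio of summed counts over library totals was 3.41, with an exact 95% counting interval of 2.61 to 4.50. Its coefficient of variation was 26.6% with vitamin E and 41.7% in control, against 11.1% and 20.4% from counting alone. It ranked between 153 and 170 of the 667 rows with vitamin E and between 184 and 207 in control.

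miR-34b-5p, the other member of the pair, was barely detected in control fat. It had 2.57, 3.40 and 2.30 TPM with vitamin E, against 0, 0.398 and 0.272 TPM in control, from 14 to 24 counts and 0 to 2 counts per library. All control values, including the 0 of control library 1, lie at or below the 3 counts that a count of 0 allows. Means were 2.75 ± 0.574 TPM with vitamin E and 0.223 ± 0.203 TPM in control (± SD, n = 3 each). With 53 counts summed over the vitamin E libraries and 4 over the controls, the ratio over library totals was 13.3, with an exact 95% counting interval of 4.89 to 50.5. The fitted log2 fold change was 3.50 (SE 0.71), and it was 2.89 without control library 1 and 1.62 on the log2(TPM + 1) scale, where a pseudocount compresses such low values. miR-34b-5p passed the filter only through the vitamin E libraries, so its place among the tested miRNAs already implies a higher level there. Its coefficient of variation was 20.9% with vitamin E against 23.8% from counting alone, and 91.1% in control against 86.6%, so counting error was as large as the spread seen.

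**Figure D1:**
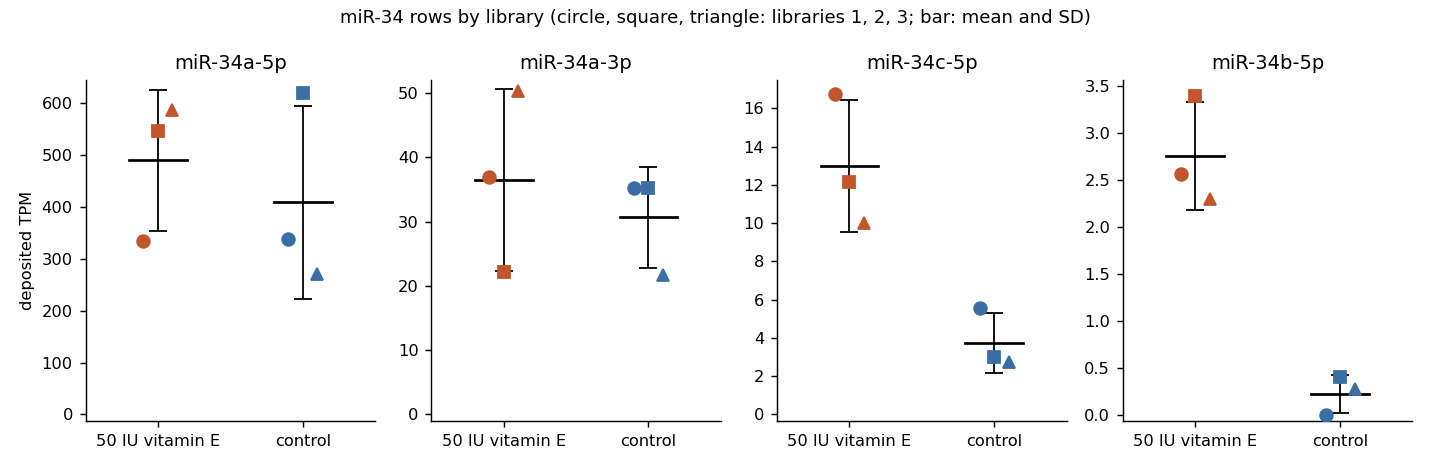
Deposited TPM of the 4 tested miR-34 rows (y axis, a separate scale per panel) in the vitamin E libraries and the control libraries, with 1 point per library and the group mean and SD as bars. The points of miR-34a-5p and miR-34a-3p overlap between groups, and those of miR-34c-5p (10.01 to 16.8 with vitamin E, 2.72 to 5.55 in control) and miR-34b-5p (2.30 to 3.40 with vitamin E, 0 to 0.398 in control) do not.

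The remaining 2 rows were the 3p arms of the cluster, and neither passed the filter. miR-34b-3p had 2, 5 and 1 counts with vitamin E, against 0, 1 and 0 counts in control. Its summed ratio was 8.02, with a counting interval from 1.08 to 356, and the groups overlapped in TPM. It made up 13.1% of the 61 miR-34b counts with vitamin E (exact 95% interval 5.84% to 24.2%) and 1 of 5 counts in control. miR-34c-3p was seen with 2 counts, both in vitamin E library 1, and with 0 counts in control, too few for a ratio. Over all 6 libraries, the 3p arm held 6.94% of the miR-34a counts (6.58% to 7.32%), 13.6% of the miR-34b counts (6.43% to 24.3%) and 0.627% of the miR-34c counts (0.0760% to 2.25%). The interval of miR-34c lay below those of the others, but such pooled intervals cover counting error only. The shares of miR-34b and miR-34c also rest on the uncertain split of their 5p reads.

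Summed, miR-34b-5p and miR-34c-5p had 113, 110 and 75 counts with vitamin E, against 37, 17 and 22 counts in control. This sum does not depend on how reads were divided between the pair, provided that each read was counted once. In control library 1, with 37 counts of miR-34c-5p and 0 of miR-34b-5p, no read was entered under both. For the other libraries that is not known, and the rows miR-219a and miR-219b hold equal counts in each library. The groups of the sum did not overlap, at 12.3 to 19.3 TPM with vitamin E and 2.99 to 5.55 TPM in control. Fitted as 1 row, a choice made after the values were seen, the pair had a log2 fold change of 1.84 (SE 0.50). miR-34b-5p was 13.3%, 21.8% and 18.7% of the pair in the vitamin E libraries, against 0%, 11.8% and 9.09% in the controls. The exact 95% interval was 14.5% to 30.7% in vitamin E library 2, 0% to 9.49% in control library 1 and 1.46% to 36.4% in control library 2. At this depth a change in the division of the pair was not detectable in 2 of the 3 controls, whose intervals contain the vitamin E values.

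The levels kept 1 order in every library, from miR-34a-5p through miR-34a-3p and miR-34c-5p to miR-34b-5p. Within a group no neighbours in that order overlapped. By ratio, the closest were miR-34a-3p and miR-34c-5p with vitamin E. There miR-34a-3p stood at 22.1 TPM and above and miR-34c-5p at 16.8 TPM and below. The whole family summed to 392, 585 and 650 TPM with vitamin E, against 378, 658 and 295 TPM in control. This total followed miR-34a-5p, which held 85.5% to 93.4% of family counts with vitamin E and 89.2% to 94.1% in control, and its groups overlapped. The clustered genes, both arms together, held 5.10%, 2.78% and 1.92% of family counts in the vitamin E libraries, against 1.47%, 0.544% and 1.02% in the controls.

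Set against miR-34a-5p in the same library, which needs no scaling factor, the pair was higher with vitamin E. These ratios reuse the counts by which the family was chosen and are no separate evidence. miR-34c-5p had 50.0, 22.3 and 17.0 counts per 1000 counts of miR-34a-5p with vitamin E, against 16.4, 4.81 and 10.1 in control. These groups only just failed to overlap, at 17.0 in vitamin E library 3 and 16.4 in control library 1. miR-34b-5p had 7.66, 6.22 and 3.91 per 1000 with vitamin E, against 0, 0.642 and 1.01 in control. Those groups did not overlap, but the control values rest on 0 to 2 counts per library, below the 3 that a count of 0 allows. As fitted, the log2 fold change of miR-34c-5p exceeded that of miR-34a-5p by 1.49, and by 0.96 without control library 2. For miR-34b-5p the difference from miR-34a-5p was 3.35, and it lay between 2.83 and 3.78 when any 1 library was left out.

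**Figure D2:**
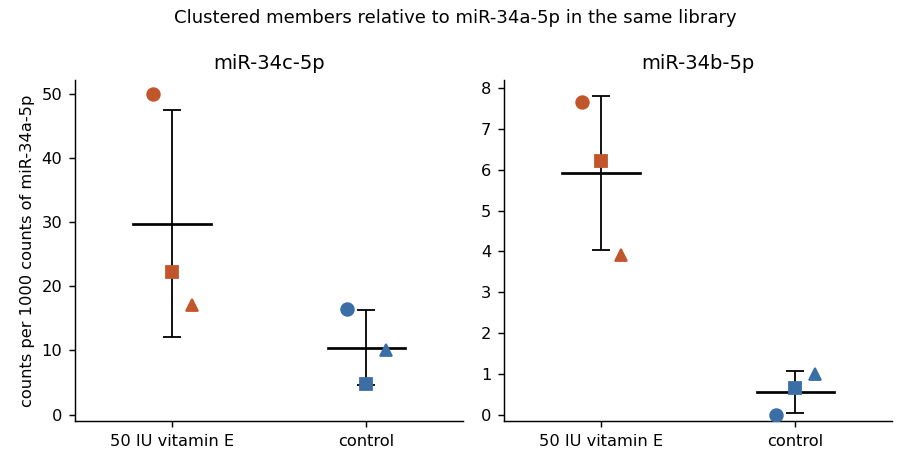
Counts of miR-34c-5p (left) and miR-34b-5p (right) per 1000 counts of miR-34a-5p in the same library (y axes), with 1 point per library and the group mean and SD as bars. For miR-34c-5p the nearest vitamin E and control libraries stand at 17.0 and 16.4, and for miR-34b-5p at 3.91 and 1.01.

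None of the 4 tested rows passed the threshold, a Benjamini-Hochberg adjusted p under 0.05 over the 238 miRNAs tested by edgeR's quasi-likelihood method. In all, 0.420% of the tested miRNAs passed it. At an unadjusted p under 0.05 stood 2 of the 4, miR-34b-5p and miR-34c-5p, where 5.04% of all tested miRNAs stood on the higher side. By adjusted p, miR-34b-5p was the 1 row called by DESeq2, which called 2.10% of its miRNAs as higher, and by the edgeR likelihood ratio test, which called 1.68%. It was likewise the 1 row called without the low-count filter (0.600% of miRNAs higher), with limma on log2(TPM + 1) (1.26%) and with the replicate number as a block (1.68%), while limma-voom called 0 rows (0.420%). The groups did not overlap, with vitamin E higher, for the same pair, as for 10.9% of the tested miRNAs. By fold change miR-34b-5p ranked 1 and miR-34c-5p ranked 6 among the 238, with miR-34a-5p at 86 and miR-34a-3p at 91, while by mean abundance miR-34b-5p ranked 237. These counts use the contrast by which the family was chosen and carry no weight beyond it.

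**Figure D3:**
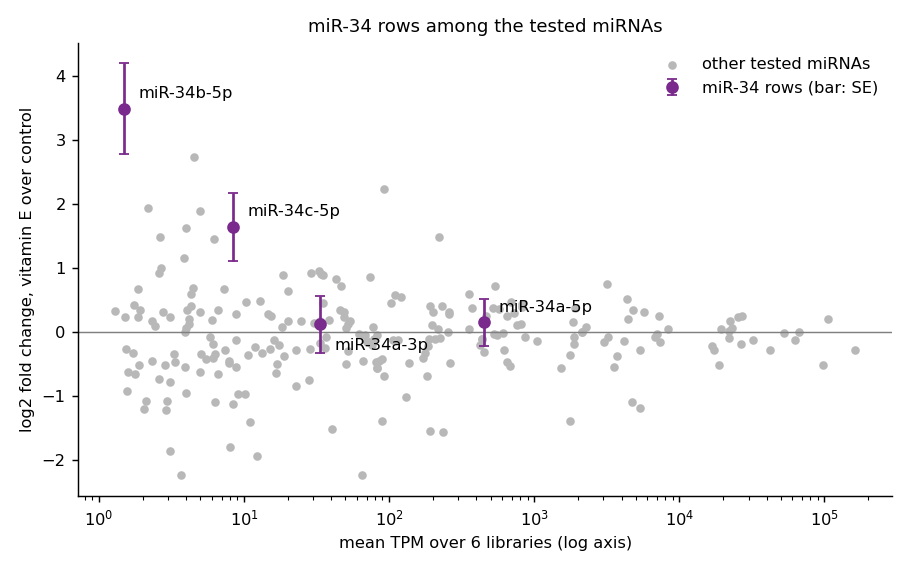
Log2 fold change, vitamin E over control (y axis), against mean TPM over the 6 libraries (x axis, log scale) for the 238 tested miRNAs, with the 4 miR-34 rows and their SE marked. miR-34b-5p at 3.50 and miR-34c-5p at 1.64 lie at the low-abundance end, and miR-34a-5p at 0.15 and miR-34a-3p at 0.12 lie near 0.

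The miR-449 family of multiciliated cells, related to miR-34, stood near the limit of detection. Over 4 miR-449 rows the libraries held 4, 9 and 2 counts with vitamin E, against 1, 2 and 4 counts in control, and the groups overlapped. Per row, miR-449a had 6 counts in all with vitamin E and 2 in control, miR-449b-5p had 5 and 4, miR-449c-5p had 3 and 1, and miR-449c-3p had 1 and 0. In GRCg7b their genes adjoin one another and MCIDAS, a regulator of the multiciliated fate. At 0.328 to 1.27 TPM with vitamin E and 0.150 to 0.544 TPM in control, the summed level of these multiciliated cell markers was below that of miR-34c-5p in each library. It was below that of miR-34b-5p in each vitamin E library, but equal to it in control library 2 and above it in control libraries 1 and 3.

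Markers of other cell types moved to different extents beside the cluster. Of 9 tested nervous tissue rows all 9 were higher with vitamin E (median log2 fold change 1.45). This count and median are partly set by the filter, since some rows, named below, passed it only with help from vitamin E libraries. They also include the equal rows miR-219a and miR-219b. Over all 238 tested miRNAs the median was -0.07, with 109 higher and 129 lower. The rows miR-219a and miR-219b, at 0.00, were at -0.05 under median-of-ratios scaling and -0.08 under upper-quartile scaling. With each library left out in turn, 6 to 9 nervous rows were higher and 0 to 3 lower. With library totals alone, a scaling that moved all miRNAs by a median of 0.107, the split over all tested was 127 higher and 111 lower. At an unadjusted p under 0.05 stood 4 of the 9 nervous rows, beside 7.56% of all tested miRNAs. These were miR-9-5p, miR-9-3p, miR-124a-3p and miR-124c-5p. They were also the 4 whose groups did not overlap, all with vitamin E higher, as for 10.9% of all tested. Of these, miR-9-3p (8, 2 and 12 counts in control) and miR-124c-5p (7, 3 and 6) passed the filter only through the vitamin E libraries. Their place among the tested rows therefore already implies a higher level there. miR-9-3p had 8.02 ± 0.624 TPM with vitamin E and 1.08 ± 0.626 TPM in control, and miR-124a-3p had 9.28 ± 0.913 TPM with vitamin E and 3.14 ± 0.387 TPM in control (± SD, n = 3 each). Of the nervous rows 1 passed (3 by DESeq2), miR-9-5p, at 154 ± 11.3 TPM with vitamin E and 29.8 ± 5.74 TPM in control (± SD, n = 3 each). Its log2 fold change was 2.24 (adjusted p = 0.0396 by edgeR quasi-likelihood), and the call ended with upper-quartile factors and when any library but control 1 was left out. The whole nervous list summed to 3991 to 5439 TPM with vitamin E and 3498 to 5569 TPM in control, nearly all of it miR-219a and miR-219b, which have equal counts. Without that pair, a trimming made after the values were seen, the sum was 232 to 255 TPM with vitamin E and 79.5 to 86.9 TPM in control. Its mean was 241 TPM with vitamin E, most of it miR-9-5p. The next largest row there, miR-138-5p, overlapped between the groups, at 39.7 to 73.9 TPM with vitamin E and 32.8 to 51.7 TPM in control. Overlap was also seen for miR-137-3p and miR-138-2-3p. The row miR-153-3p, not tested, had 0 counts in all vitamin E libraries and 1, 1 and 0 counts in control. All of these lie below the 3 counts that a count of 0 allows. The trimmed sum, like miR-34b-5p and miR-34c-5p, was higher in all 3 vitamin E libraries than in any control, and the part of nervous tissue in the miR-34 values was not tested.

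Epithelial rows were 7 higher and 2 lower of 9 tested, with 0 called (edgeR quasi-likelihood; 2 at an unadjusted p under 0.05, miR-200b-3p higher and miR-205b lower; 1 by DESeq2), and summed to 345 to 538 TPM with vitamin E and 298 to 448 TPM in control. miR-200a-3p, their most abundant row, had 147 ± 22.7 TPM with vitamin E and 94.8 ± 30.4 TPM in control (± SD, n = 3 each), a log2 fold change of 0.54 that was 0.32 without control library 1. In 3 epithelial rows the groups did not overlap, 2 with vitamin E higher and 1 with it lower, beside 10.9% and 2.10% of all tested miRNAs. miR-200b-3p had 80.6, 115 and 96.4 TPM with vitamin E, against 41.2, 49.7 and 58.7 TPM in control, a log2 fold change of 0.86. miR-200b-5p, from the same hairpin, had 3.25, 3.54 and 3.61 TPM with vitamin E, against 1.05, 1.59 and 2.45 TPM in control, a log2 fold change of 0.93. Both miR-200b arms were thus higher in all 3 vitamin E libraries than in any control, as were miR-34b-5p and miR-34c-5p. However, miR-200b-5p, with 7, 8 and 18 counts in control, passed the filter only with the help of the vitamin E libraries. miR-205b was the row with vitamin E lower, at 25.2, 32.3 and 13.4 TPM with vitamin E, against 41.8, 231 and 46.8 TPM in control. Its log2 fold change of -2.24 (SE 0.71; adjusted p = 0.333 by edgeR quasi-likelihood, 0.0344 by DESeq2) was -1.05 without control library 2. Leukocyte rows were 3 higher and 3 lower of 6, with 0 called (edgeR quasi-likelihood and DESeq2) and 0 at an unadjusted p under 0.05, at 9726 to 13971 TPM with vitamin E and 8735 to 13650 TPM in control. Among them miR-142-5p was at -0.03 on the log2 scale (0.28 without control library 3 and 0.05 with library totals alone) and miR-146a-3p at -0.69. The gonad marker miR-202-5p, not tested, stood at 0.492 to 0.991 TPM with vitamin E and 0.199 to 0.750 TPM in control. These rest on 3, 7 and 3 counts with vitamin E and 5, 1 and 3 counts in control. Most of them lie at or below the 3 counts that a count of 0 allows. The part of these cell types in the miR-34 values was not tested.

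Profiles over the 6 libraries were compared by the root mean square difference of log2 CPM (TPM on TMM-scaled library sizes), each centred on its own mean, where a smaller value means a closer profile. Nearest to miR-34c-5p were miR-193b-3p at 0.426, miR-9-5p at 0.435 and miR-124c-5p at 0.473, beside a median of 1.02 over all other tested miRNAs. Nearest to miR-34b-5p were miR-133b at 0.593, miR-9-5p at 0.624 and miR-6606-5p at 0.699, beside a median of 1.40. Its cluster partner miR-34c-5p stood at 0.881 from it. The log2 CPM values include a small count that edgeR adds, and miR-34b-5p had only 0 to 2 counts per control library. Its control profile, and so its distances, therefore depend strongly on that added count. miR-133b (0.600, 2.19 and 2.85 TPM in control) and miR-6606-5p (1.20, 1.39 and 3.40) passed the filter only with help from vitamin E libraries. So did miR-124c-5p. Their likeness to miR-34b-5p or miR-34c-5p is therefore partly set by the filter. Nearest to miR-34a-5p were miR-221-5p at 0.224 and the equal rows miR-219a and miR-219b at 0.227, beside a median of 0.633. miR-34a-3p, cut from the same hairpin, was at 0.504 from miR-34a-5p, while miR-34c-5p was at 0.987 and miR-34b-5p at 1.27. All these points share the same 6 libraries and their depth, and the profiles include the difference between the groups.

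miR-193b-3p, from a cluster known from brown fat differentiation in mice, had 333 ± 106 TPM with vitamin E and 110 ± 14.1 TPM in control (± SD, n = 3 each), a log2 fold change of 1.48. The miR-365 rows of the fat list were not higher alongside it. miR-365-2-5p overlapped between the groups, at 15.2 ± 4.22 TPM with vitamin E and 18.6 ± 20.5 TPM in control, a log2 fold change of -0.51. miR-365-1-5p had 0 or 1 count in each library. miR-133b, a striated muscle miRNA, had 6.13 ± 1.91 TPM with vitamin E and 1.88 ± 1.16 TPM in control, and miR-124c-5p, of a neuronal family, had 3.54 ± 1.07 TPM with vitamin E and 0.821 ± 0.227 TPM in control. miR-6606-5p had 7.99 ± 2.43 TPM with vitamin E and 1.997 ± 1.22 TPM in control. miR-221-5p, whose hairpin is abundant in vessel walls, had 123 ± 16.9 TPM with vitamin E and 82.3 ± 31.6 TPM in control, a log2 fold change of 0.46 that was 0.18 without control library 3.

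**Figure D4:**
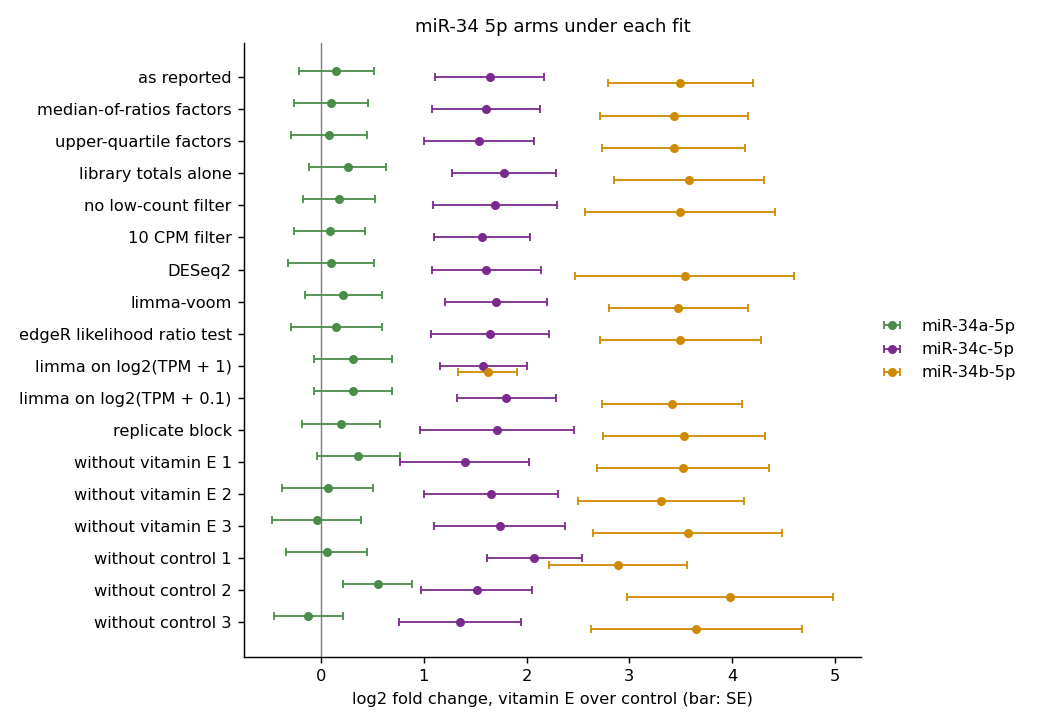
Log2 fold change, vitamin E over control (x axis, bars show SE), of miR-34a-5p, miR-34c-5p and miR-34b-5p under the reported fit and 17 other fits (y axis); miR-34b-5p has no value under the 10 CPM filter. miR-34a-5p runs from -0.12 to 0.55 around 0, miR-34c-5p from 1.35 to 2.08, and miR-34b-5p from 1.62, on the log2(TPM + 1) scale, to 3.98.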

How the data were processed

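Small RNA libraries of abdominal fat were compared, 3 with vitamin E and 3 controls, grouped by the treatment label. The authors deposited whole-number read counts per mature miRNA, per the file headers. Their deposited TPM values equal those counts scaled to 1000000 per library (largest deviation 4.07e-10). No source used here names the aligner, counting rule, miRNA reference or build. No mature sequences were used.

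Counts were fitted with edgeR 4.0.16 in R 4.3.3 (TMM factors, filterByExpr with a minimum count of 10 and total of 15, robust quasi-likelihood F test), with Benjamini-Hochberg adjustment over 238 tested rows of 667 and a threshold of 0.05. The code was tested on simulated data with less spread than these data, with changes placed only in rows of higher counts than miR-34b-5p. Intervals are exact, at 95%. Each SE of an edgeR fit is the absolute log2 fold change divided by the square root of the test statistic, so it is approximate. limma 3.58.1 and DESeq2 1.42.0 served as alternatives, beside other scalings, filters, a replicate block and each library left out.

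The members and lists were chosen with earlier results of these data known. Named miRNAs are the members, the miR-449 rows, the 3 closest profiles to each 5p member, the most abundant and smallest-p row of each list reported, and every miRNA past the threshold. miR-200b-3p, miR-200b-5p, miR-9-3p, miR-124a-3p, miR-153-3p and miR-202-5p were named after their values were seen. Part of the lists is not reported here.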

Additional observations from a re-analysis of the deposited data

How the results depend on the processing

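Of the miR-34 values, miR-34c-5p stayed between 1.35 and 2.08 and miR-34b-5p above 0 in every fit that tested them, and miR-34a-5p and miR-34a-3p changed sign in 2 of 18 alternative fits each, those without vitamin E library 3 and without control library 3. The log2 fold change of miR-34b-5p was 1.62 on log2(TPM + 1), with its difference from miR-34a-5p at 1.31, since the pseudocount exceeds its control levels. Leaving out 1 library in turn gave 2.89 to 3.98 for miR-34b-5p. The number of miR-34 rows called, 0 as reported, was 1 (miR-34b-5p) without the low-count filter, with DESeq2, with the edgeR likelihood ratio test, with limma on log2(TPM + 1) and with the replicate block, and 0 with each library left out; the cause was not tested. Over all miRNAs the number called, 1 as reported, was 0 with upper-quartile factors, 8 without the filter, 7 with DESeq2, 4 with the likelihood ratio test, 3 with limma on log2(TPM + 1), 3 at an adjusted p under 0.1 and 0 to 1 with a library left out, where fewer samples were fitted. Both groups carry replicate numbers 1 to 3, but pairs with 1 number did not move together (their deviations from the group means correlated at -0.16, 0.05 and -0.02, and 1 of 6 libraries was closest to its own number); with the replicate block 5 miRNAs were called, 4 higher and 1 lower. Under the 10 CPM filter miR-34b-5p was not tested. Depth limits miR-34b and both 3p arms of the cluster, at 24 counts or fewer per library.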
